A study of Mus musculus with 2 samples.

Results

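Cluster 11 of the embryonic day 13.5 (E13.5) mouse lower jaw was a group of 279 mesenchymal cells, taken as every cell to which the authors' deposited metadata give that cluster number. It made up 4.42% of the 6318 cells of the E13.5 library (exact Clopper-Pearson 95% interval 3.92% to 4.95%). Of the 3833 cells of the 10 mesenchymal clusters used here, it made up 7.28%. The whole series holds 13417 cells. The authors' lineage name for the cluster is Mesenchyme. It was compared with clusters 0, 2, 3, 4, 5, 6, 10, 12 and 14 of the same library, 3554 cells in all, of which cluster 5 carries the authors' name Osteogenic Progenitors and the other 8 carry Mesenchyme.

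Mandibular tissue with the developing tongue and skeletal elements was dissected from wild-type CD1 embryos at E13.5, and mandibular prominences with the tongue bud at E11.5. Both were dissociated with a cold-active bacterial protease, at 5 mg/ml and 3 mg/ml, and profiled on the 10x droplet platform. There was 1 library per stage, and the number of embryos behind each is not stated in the labels. The libraries held 49913485 UMIs (unique transcript counts) at E11.5 and 67838169 at E13.5, with medians of 6231 and 9280 per cell. With 1 library there is no replicate check, and the clusters were made from these same genes, so every value below is a description of 1 library and no test was run. The intervals cover counting error only.

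The mesenchyme of the mandibular arch comes largely from the cranial neural crest. It gives rise to bone, cartilage, tooth pulp, tendon and the connective tissue of the tongue and skin. Hedgehog proteins made by the covering epithelium signal to it: they bind PTCH1, which releases SMO and lets GLI factors act on their targets. FOXF1 and FOXF2 are forkhead factors known as hedgehog-responsive genes of the oral mesenchyme. AP-2 factors such as TFAP2B are known for their part in neural crest and craniofacial development.

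Cluster 11 cells had a median of 7956 UMIs, from 1932 to 24851, against 8408.5 in the 9 comparison clusters pooled. Their median mitochondrial share was 3.19%, against 3.01%. The authors called 128 of the 279 cells S or G2M (45.9%, interval 39.9% to 51.9%), against 43.0% of the pooled cells. Phase was very uneven among the comparison clusters: all cells of clusters 4 and 10 were called S or G2M, but only 13.96% to 15.3% of clusters 0, 12 and 14. All 9 mesenchyme markers (Prrx1, Prrx2, Twist1, Pdgfra, Col1a1, Col1a2, Col3a1, Vim and Cdh11) were detected in cluster 11, with 4 of them called lower than in the pool. They summed to 2162 CPM (UMIs per 1000000 of the cluster's total), below the range of the other 9 clusters, 2539 to 8715 CPM. Xist, transcribed from the inactive X chromosome of female cells, had a UMI in 26.2% of cluster 11 cells and in 30.9% of the pooled cells. Of the cell barcodes, 71 occurred in both libraries, 5 of them in cluster 11. Of the cells with the highest 5% of doublet scores, 7 were in cluster 11 (2.51% of it), against 4.33% of the pooled cells.

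**Figure D1:**
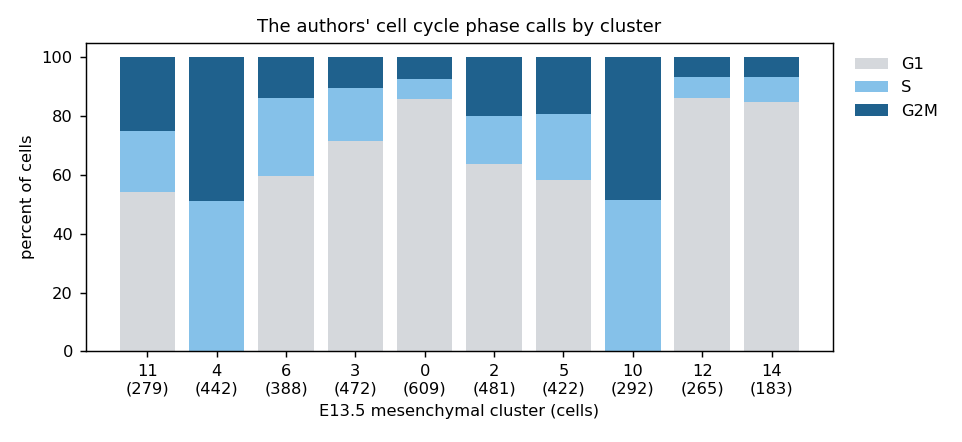
Share of cells (percent) that the authors called G1, S or G2M in each of the 10 E13.5 mesenchymal clusters, with the number of cells in brackets. Cluster 11 has 54.1% of its cells in G1, and clusters 4 and 10 have none.

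Summed counts set 641 of 13414 measured genes (4.78%) at least 1.5-fold higher in cluster 11 than in the pool, and 1328 genes (9.9%) at least 1.5-fold lower. Genes with fewer than 20 UMIs in cluster 11 and the pool together were left out, and a gene was called when its ratio passed 1.5-fold and its 95% interval lay beyond 1. Against each of the 9 clusters in turn, 79 genes (0.589%) were called higher every time and 65 genes (0.485%) lower every time. The 20 highest ratios among well-counted genes were led by transcription factors: Tfap2b, Foxq1, Tfap2c, Ahr, Meox2, Sp5, Foxf2, Nr2f1 and Foxf1 were among them. In each of the 20, cluster 11 had the highest level of the 10 clusters.

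Tfap2b, which encodes the AP-2 beta factor (chr1:19208914-19238576 in GRCm38), stood at 199.7 CPM in cluster 11. In the other 9 clusters it ran from 1.57 CPM in cluster 0, over a median of 4.59, to 37.0 CPM in cluster 4. The ratio to the pool was 20.3-fold (17.6 to 23.5), so cluster 11 stood far above its nearest neighbour. Tfap2c, which encodes AP-2 gamma (chr2:172549593-172558622), had 65.7 CPM against 0.616 to 18.7 CPM and a ratio of 10.45 (8.42 to 12.95). Tfap2a was scarce, at 2.97 CPM from 7 UMIs. The epithelial clusters of the library also hold both leading AP-2 genes, at 259 CPM for Tfap2b and 48.5 CPM for Tfap2c. The 12 epithelial markers summed to 202 CPM in cluster 11, within the 149 to 310 CPM of the other clusters. Of these markers, 1 was called higher than in the pool and 1 lower, beside 4.78% and 9.9% of all measured genes. Without the 55 cells of cluster 11 that had 3 or more epithelial UMIs, and the like cells of the pool, the log2 ratio was 4.37 for Tfap2b, against 4.34 with them. The part of epithelial RNA in the AP-2 levels was not tested further.

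Foxq1 and Foxf2, forkhead genes that lie close together on chromosome 13 (chr13:31556134-31560976 and chr13:31625816-31631403), were both far above the pool. Foxq1 had 81.4 CPM, against 18.99 CPM in cluster 4, 10.1 CPM in cluster 6 and at most 1.34 CPM in the other 7 clusters, a ratio of 17.5 (14.04 to 21.8). With cluster 4 left out of the pool, the log2 ratio went from 4.13 to 5.36 for Foxq1 and from 4.34 to 5.39 for Tfap2b. Foxf2 had 220.0 CPM and a ratio of 5.77 (5.20 to 6.405). Foxf1 (chr8:121084386-121088144) had 192 CPM and a ratio of 4.39 (3.94 to 4.89). These FOXF genes were shared with clusters 4 and 6, where Foxf2 stood at 120 and 115 CPM and Foxf1 at 113 and 118 CPM. In clusters 0, 2, 10, 12 and 14 neither passed 5.82 CPM. Foxc2, a further forkhead gene that was picked out after its values were seen, had 44.5 CPM, against 11.2 CPM in the next cluster, cluster 4. Fendrr, the noncoding gene next to Foxf1, was also among the 79 genes higher than every cluster.

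**Figure D2:**
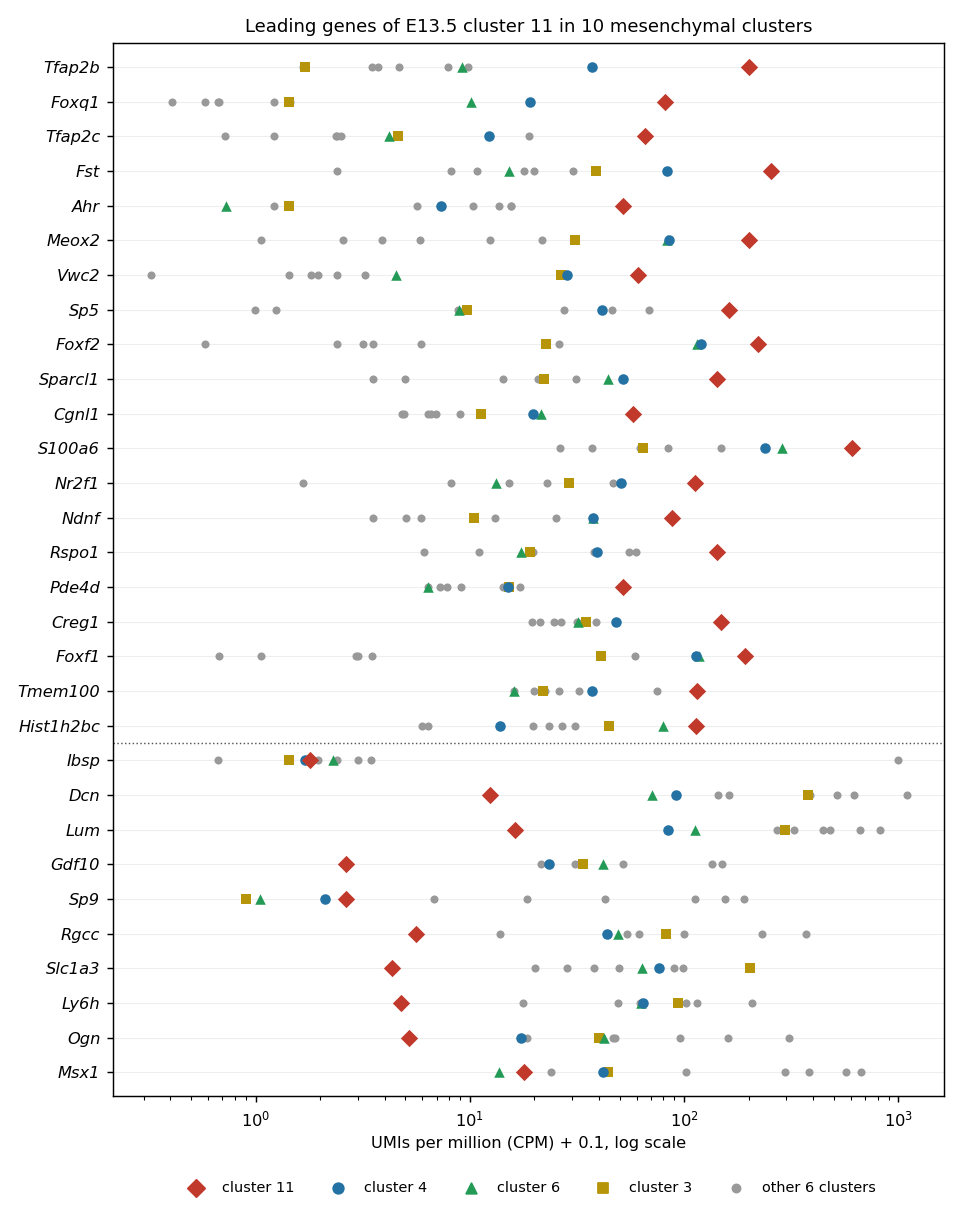
Level of the 20 genes with the highest ratios (above the dotted line) and the 10 with the lowest (below it) in each mesenchymal cluster, as CPM plus 0.1 on a log scale, 1 point per cluster. Cluster 11 has the highest level of all 20 genes above the line, and cluster 4 is often next.

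Genes of the hedgehog pathway went both ways. Beside 4.78% higher and 9.9% lower of all measured genes, 5 of 14 measured members were higher and 5 lower. The higher ones included Ptch1, Hhip, Foxf1 and Foxf2, and the lower ones were Gli2, Gli3, Gas1, Boc and Cdon. The median log2 ratio was 0.34, against -0.03 over all measured genes. Foxf1 and Foxf2 were also among the 20 leading genes, which were picked for their high ratios. Ptch1, the receptor that is itself induced by the signal, had 76.3 CPM, against 4.55 to 32.5 CPM in the other clusters (3.33-fold, 2.81 to 3.92). Clusters 2 and 4 came next, both well below cluster 11. Hhip, a decoy receptor and target, had 10.2 CPM against a pool level of 4.72 CPM. For Hhip, cluster 2 was higher still, at 11.8 CPM. Gli1, the usual target among the GLI genes, did not pass: it had 13.99 CPM in cluster 11, 11.4 CPM in the pool and 14.99 CPM in cluster 4 (ratio 1.23, 0.836 to 1.76).

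The co-receptors stood the other way. Gas1, a membrane protein that helps hedgehog bind, had 37.3 CPM, below the 124 to 743 CPM of every other cluster (9.38-fold lower, 7.61 to 11.7). Cdon was 14.02-fold lower (5.45 to 51.6) on only 4 UMIs, and Boc 2.75-fold lower (1.75 to 4.59). Both had their lowest level of the 10 clusters here. Gli3, which mostly acts as a repressor, had 11.4 CPM against 27.5 CPM in the pool. Smo, the signal transducer, did not pass at 74.6 against 54.6 CPM. Shh itself had 2 UMIs in cluster 11. The members of this list named here were chosen after their values were seen, except Foxf1, Foxf2, Gas1 and Cdon.

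**Figure D3:**
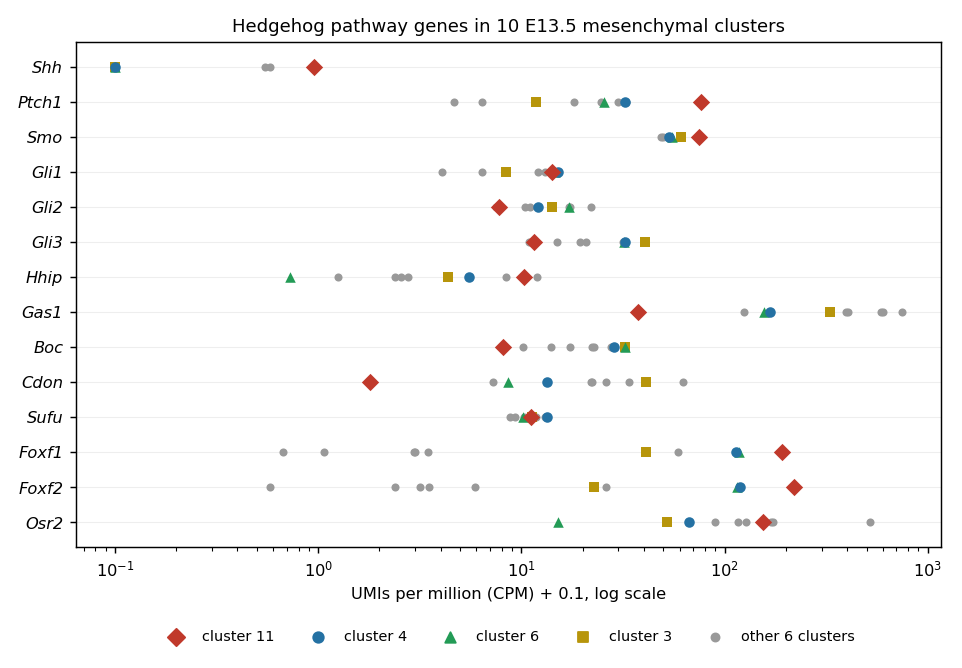
Level of 14 hedgehog pathway genes in each mesenchymal cluster, as CPM plus 0.1 on a log scale, 1 point per cluster. Cluster 11 is highest for Ptch1, Foxf1 and Foxf2 and lowest for Gas1, Boc and Cdon.

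Beside the 4.78% higher and 9.9% lower of all measured genes, WNT genes were higher in 8 of 29 measured members and lower in 9. Their median log2 ratio was -0.28, or -0.27 with 1 member at a floor of 3 UMIs. The higher ones were the amplifiers Rspo1 and Rspo3, the target and effector genes Axin2, Lef1, Tcf7 and Sp5, the receptor Fzd1, and Wif1, a secreted inhibitor. Sp5, a zinc finger factor known as a direct target of WNT signalling (chr2:70474923-70477729), had 161.5 CPM, against 0.895 to 68.1 CPM elsewhere, with cluster 2 next. Its ratio was 6.46 (5.70 to 7.31). Rspo1, an R-spondin that strengthens WNT signals, had 143 CPM against 6.04 to 59.8 CPM (4.85-fold, 4.27 to 5.50), and Rspo3 had 169 CPM against 52.8 CPM in the pool (3.20-fold, 2.86 to 3.57). Axin2 and Lef1 were not specific to it: cluster 2 had more of both, at 48.8 and 147.5 CPM, than cluster 11, at 36.04 and 83.5 CPM. Among the lower members were the ligand Wnt2, at 1 UMI, Lgr5, at 2.12 against 12.5 CPM, and Sfrp2, a secreted WNT modulator. Sfrp2 had 35.6 CPM, below all 9 other clusters at 99.7 to 920.0 CPM (8.47-fold lower, 6.83 to 10.6).

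Since Sp5 led the WNT members, the 250 bases before its start site (chr2:70474673-70474922, + strand, GRCm38, from RefSeq) are shown, with matches to the TCF/LEF core in capitals. The search used CTTTGA on both strands.
Sp5: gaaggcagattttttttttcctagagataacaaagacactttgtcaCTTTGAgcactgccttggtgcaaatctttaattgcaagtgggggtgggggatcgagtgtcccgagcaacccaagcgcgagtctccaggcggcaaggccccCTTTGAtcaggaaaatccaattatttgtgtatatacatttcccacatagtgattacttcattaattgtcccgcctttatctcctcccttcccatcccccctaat
The Sp5 stretch holds 2 matches. Of the 20 leading genes, 11 have a promoter in the RefSeq table, and of these Sp5 and Pde4d hold the core. Counted the same way, 15.8% of all 27025 genes in that table hold it, so 2 of 11 is near the share over all genes. A core GLI sequence, CCACCCA, searched on both strands, occurs in 9.29% of all these genes and in none of the 11. These are letter matches in a short window, and no binding was measured.

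BMP pathway genes were mostly lower than in the pool, but not than in every similar cluster. Beside 4.78% higher and 9.9% lower of all measured genes, 2 of 24 measured members were higher and 13 lower. Their median log2 ratio was -1.29, or -0.998 with the 3 members that had no UMI placed at the floor. The higher ones were Fst and Bmp7. Fst (chr13:114452290-114458951) encodes follistatin, a secreted protein that binds activins and some BMPs. It had 254 CPM, against 2.29 to 83.1 CPM in the other clusters, with cluster 4 again next (8.82-fold, 7.94 to 9.78). Bmp7, a ligand, had 41.1 CPM against 3.44 to 25.7 CPM (2.74-fold, 2.18 to 3.41). The ligand Bmp4 was lower, at 40.7 against 108 CPM, and so was Gdf10, at 2.54 against 53.4 CPM (20.99-fold lower, 9.62 to 57.3). The target genes Id1, Id2, Id3 and Id4 were all called lower. Id2 had 46.6 CPM against 164 CPM in the pool. Against cluster 6 the list was even, with 5 of 16 members higher, Id2 among them, and 4 lower (median 0.05). The shares of all measured genes there were 6.53% and 9.29%. Against cluster 4, 2 of 17 were higher and 5 lower (all genes 6.01% and 11.3%), and against cluster 3, 2 of 16 and 7 (6.61% and 10.3%).

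Other leading genes encode a varied set of proteins. Ahr, the aryl hydrocarbon receptor, had 51.7 CPM against at most 15.5 CPM in another mesenchymal cluster (7.28-fold, 5.79 to 9.11). Endothelial and glial cells of the library hold it at like levels, 56.9 and 53.4 CPM. Meox2, a homeobox gene of limb muscle development, had 200.1 CPM against 0.962 to 84.7 CPM (6.79-fold, 6.07 to 7.60). Nr2f1, a nuclear receptor, had 112 CPM against 1.56 to 50.8 CPM (4.99-fold, 4.32 to 5.75). S100a6, a small calcium-binding protein, was the most abundant of the 20, at 604 CPM against 26.4 to 286 CPM (5.01-fold, 4.71 to 5.33).

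The other leading genes, Vwc2, Sparcl1, Cgnl1, Ndnf, Pde4d, Creg1, Tmem100 and Hist1h2bc, had ratios from 4.05 to 6.72. For 2 of these another value bears on the level. Creg1 had 149 CPM in cluster 11, but 301 CPM in the erythroid cells, and 32.0% of thinned erythroid cells had a UMI of it, against 24.1% of cluster 11 cells. Erythroid markers summed to 2087 CPM in cluster 11 and 2166 CPM in the pool. The part of free red cell RNA in the Creg1 level was not tested. The histone gene Hist1h2bc moved with the phase: it had 152 CPM in the G1 cells of cluster 11 and 7.89 CPM in its S cells.

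The genes with the lowest ratios were led by matrix and bone genes. Ibsp, a bone matrix protein, was 84.0-fold lower than in the pool (32.8 to 308), but its pool level came from the osteogenic cluster 5, at 997 CPM. Without cluster 5 its log2 ratio was -0.32. Dcn, which encodes the proteoglycan decorin, had 12.3 CPM, below all 9 other clusters at 71.1 to 1093 CPM (25.3-fold lower, 17.6 to 37.8). Lum, which encodes lumican, had 16.1 CPM against 84.3 to 816 CPM (21.5-fold lower, 15.7 to 30.4). Gdf10, Rgcc, Slc1a3, Ly6h and Ogn were likewise lowest in cluster 11, at 2.54 to 5.51 CPM and between 14.96-fold and 20.99-fold lower than the pool. Msx1, a homeobox gene of tooth and distal jaw mesenchyme, had 17.8 CPM and was 14.2-fold lower (10.5 to 19.8), and cluster 6 lay below it at 13.5 CPM. Sp9 was 20.1-fold lower, but clusters 3, 4 and 6 were as low.

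Across the fibrillar and connective tissue matrix list, 15 of 23 genes were lower and 1, Tnc, was higher (median log2 ratio -1.001). Of all measured genes, 9.9% were lower and 4.78% higher. Col1a2 had 297 CPM, below the 585 to 1334 CPM of every other cluster, and Col3a1 351 CPM against 944 CPM in the pool. Col1a1, at 450.3 against 666 CPM, did not pass. Cartilage genes were lower in 12 of 14 members and higher in none. Their median log2 ratio was -2.80, or -1.61 with the 4 members without a UMI at the floor. Cluster 5 weighs on the pool here: chondrocyte markers summed to 471 CPM in it, 118 CPM in the pool and 37.7 CPM in cluster 11. Cluster 14 was lower still, at 22.8 CPM. Against clusters 4, 6 and 3 the cartilage median was -0.57, -1.56 and -0.70, over 8, 8 and 6 measured members. Cytl1, with no UMI, was at least 9.22-fold lower by the floor of 3 UMIs over the whole cluster, but its pool level came from cluster 5, at 78.2 CPM. Bone genes were lower in 10 of 15 and higher in 1 (median -2.61, or -1.29 with 3 members at the floor). This low median rests largely on cluster 5, and was -0.45 without it. Tendon genes were lower in 7 of 12, among them Scx and Tnmd, and higher in 3, Chodl, Wif1 and Thbs4 (median -1.72, or -1.41 with 3 at the floor).

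**Figure D4:**
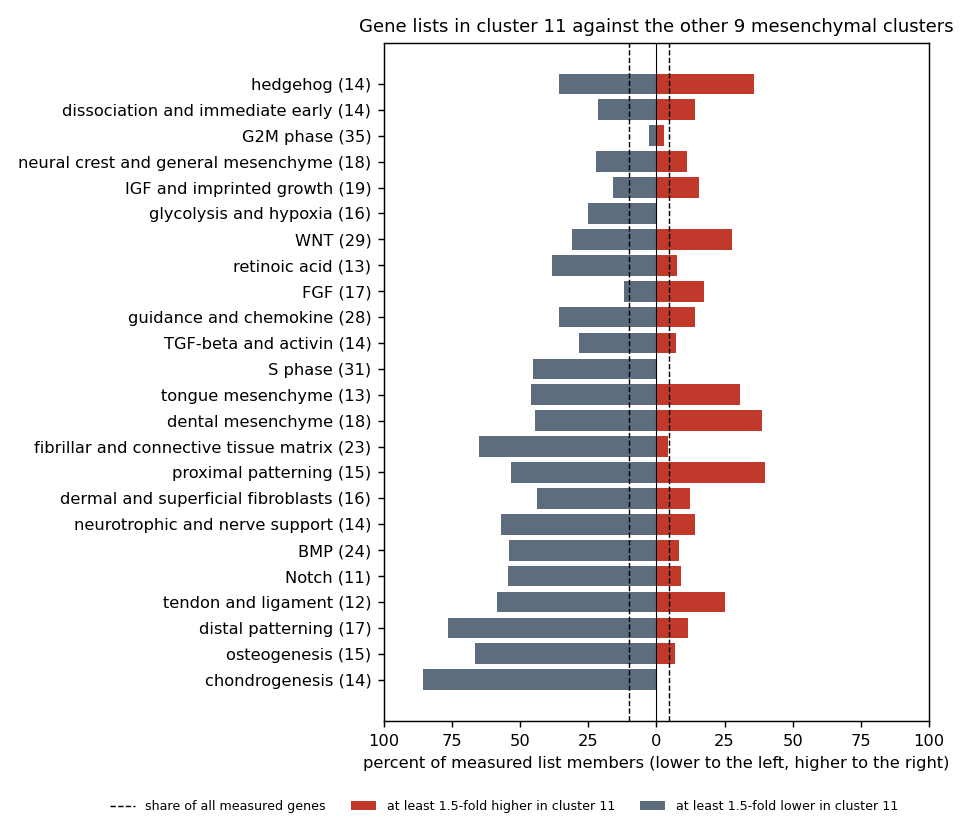
Percent of the measured members of each of 24 gene lists that were at least 1.5-fold lower (left) or higher (right) in cluster 11 than in the pooled other clusters, ordered by median ratio, with the number measured in brackets. Dashed lines mark the 4.78% and 9.9% of all measured genes. Cartilage, bone and distal patterning lists lie far to the left, and the hedgehog list is even. The pool includes the osteogenic cluster 5, which is high in cartilage and bone markers.

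Regional patterning genes gave a mixed profile, set here beside the 4.78% higher and 9.9% lower of all measured genes. Distal genes, which mark the tip of the jaw, were lower in 13 of 17 members (median log2 ratio -2.17, or -1.60 with 2 at the floor). Among them were Dlx5, at 2.12 CPM against 171 CPM in cluster 5 and at most 18.9 CPM elsewhere, and Hand1, at 7.21 against 27.6 CPM. Hand2 and Gsc were called higher just past the limit, at 183 CPM (1.52-fold, 1.38 to 1.68) and 120 CPM (1.50-fold, 1.33 to 1.70). Proximal genes were higher in 6 of 15 (Dlx1, Dlx2, Nr2f1, Nr2f2, Meis2 and Jag1) and lower in 8, with Emx2 32.2-fold lower (11.01 to 157) on 3 UMIs (median -1.05, or -0.26 with cluster 3 left out of the pool). Of 18 neural crest and general mesenchyme genes, Tfap2b and Tcf12 were higher and Prrx1, Snai1, Zeb2 and Vim lower (median -0.09). Prrx1, a homeobox gene of limb and face mesenchyme, had 82.7 CPM against 320.2 CPM in the pool.

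Dental mesenchyme genes were higher in 7 of 18 members (Lhx6, Dlx1, Dlx2, Inhba, Fgf10, Sostdc1 and Tfap2b) and lower in 8, among them Msx1, Pax9, Barx1 and Bmp4, for a median of -0.78, or 0.01 with 2 at the floor. Tongue mesenchyme genes were higher in 4 of 13 (Foxf1, Foxf2, Foxd1 and Meox2) and lower in 6, among them Osr1, Shox2 and Tbx18 (median -0.63). Foxd1 had 84.4 CPM, close to clusters 4 and 6 at 90.1 and 86.8 CPM. Dermal genes were higher in 2 of 16 (Lef1 and Meox2) and lower in 7 (median -1.07, or -0.12 with 1 at the floor). No list of a single region was higher throughout. The shares over all measured genes were 4.78% higher and 9.9% lower.

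Other signalling lists held between 1 and 4 higher members, beside the 4.78% higher and 9.9% lower of all measured genes. FGF genes were higher in 3 of 17 (Fgf10, Spred1 and Etv4) and lower in 2, the latter near the share of all genes, with a median of -0.44. TGF-beta and activin genes were higher in 1 of 14, Inhba, and lower in 4 (median -0.47, or -0.29 with 2 at the floor). In the retinoic acid list the degrading enzyme Cyp26b1 was higher, at 32.2 against 16.3 CPM, and 5 of 13 were lower (median -0.31). Of these, Aldh1a3, which makes retinoic acid, had no UMI in cluster 11 and 159 CPM in cluster 6, and was at least 22.4-fold lower than the pool, taking the floor of 3 UMIs over the whole cluster. Notch genes were lower in 6 of 11 and higher in 1, the ligand Jag1 (median -1.69, or -0.95 with 3 at the floor).

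Among guidance genes, 4 of 28 were higher (Sema3a, Epha7, Robo1 and Ntn1) and 10 lower (median -0.44, or -0.32 with 1 at the floor). Sema3a, a repellent of growing axons, had 83.1 CPM, above the 11.1 to 46.7 CPM of all other clusters (3.30-fold, 2.81 to 3.86). Of 14 neurotrophic genes, 2 were higher, Sema3a among them, and 8 lower (median -1.22), with the receptor Gfra2 18.97-fold lower on 4 UMIs. In the growth list Igf2, H19 and Peg3 were higher and Igfbp2, Igfbp3 and Igfbp5 lower, of 19 (median -0.16). Igf2 had 866 CPM against 149.6 to 649 CPM. Dissociation and immediate early genes were higher in 2 of 14 and lower in 3 (median 0.07). Glycolysis genes were higher in none and lower in 4 of 16 (median -0.26). For all these lists, the shares of all measured genes are 4.78% higher and 9.9% lower.

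By correlation of log2 CPM over 9479 genes, cluster 11 was most like cluster 4 (Pearson r = 0.949), then cluster 6 (0.936) and cluster 3 (0.931), and least like cluster 14 (0.874). These are correlations across genes of 1 library. Against cluster 4, 647 of 10770 measured genes (6.01%) were called higher in cluster 11 and 1222 (11.3%) lower. The 5 highest ratios were those of Hist1h2bc (8.21-fold), Ahr (7.19-fold), Tfap2b (5.40-fold, 4.55 to 6.44), Tfap2c (5.39-fold) and Foxq1 (4.29-fold). Hist1h2bc had 152 CPM in G1 cells and 7.89 CPM in S cells of cluster 11, and cluster 4 has no G1 cells. The part of phase in its ratio was not tested. Cell cycle genes set these clusters apart: 29 of 31 S phase genes and 29 of 35 G2M genes were lower than in cluster 4, all of whose cells were called S or G2M.

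Against cluster 6, 669 of 10247 genes (6.53%) were called higher and 952 (9.29%) lower. Ahr, with 0.629 CPM in cluster 6, led with 82.2-fold (22.3 to 687). Next were Lef1 (37.9-fold), Rspo3 (26.9-fold), Tfap2b (21.9-fold) and Efemp1 (21.8-fold). In the WNT list 11 of 22 genes were higher than in cluster 6 and 6 lower. Foxf1 and Foxf2, which cluster 6 also held, were called higher in cluster 11 than in cluster 6 too. Against cluster 3, 697 of 10538 genes (6.61%) were higher and 1085 (10.3%) lower. Tfap2b led with 125-fold (57.0 to 342), before Foxq1 (61.1-fold), Chodl (42.0-fold), Ahr (38.8-fold) and Sp5 (16.8-fold).

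All 35 G2M genes were higher in cluster 11 than in cluster 6, and likewise than in cluster 3. Of all measured genes, 6.53% were higher than in cluster 6 and 6.61% higher than in cluster 3. The authors called 25.1% of cluster 11 cells G2M, against 13.7% in cluster 6 and 10.4% in cluster 3. Against the whole pool, with its fully cycling clusters, 1 G2M gene was higher and 1 lower (median log2 ratio 0.05). Of 31 S phase genes, 14 were lower than in the pool and none higher (median -0.48). Among all measured genes, 4.78% were higher and 9.9% lower than in the pool. Within G1 cells alone the S phase median was 0.28. Tfap2b, the first of the leading genes, had 189 CPM in the G1 cells and 209 CPM in the S and G2M cells of cluster 11 (1.11-fold, 0.919 to 1.33). Its ratio to the pool was 39.04-fold among G1 cells and 14.3-fold among S and G2M cells. Foxq1 and Fst likewise had higher ratios among G1 cells, at 38.8 and 16.2, than among S and G2M cells, at 11.2 and 5.76. Clusters 4 and 10 have no G1 cells, so the G1 pool lacks them and the pools differ in their clusters. Within cluster 11, S and G2M cells stood at 0.937-fold of G1 cells for Foxq1 (0.699 to 1.26) and 0.834-fold for Fst (0.707 to 0.982). The part of phase in these ratios was not tested.

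The leading genes were also counted in single cells. They were chosen for their high level in cluster 11, so higher counts there follow from that choice. Whether they occur together more often than their separate shares give was not tested. A median of 11 of the 20 leading genes had a UMI in a cluster 11 cell (range 2 to 20), against 5 in cluster 4, 4 in cluster 6 and 1 or 2 in the other 7 clusters. With every cell thinned to 2000 UMIs, 47.8% of 278 cells had 5 or more of them. The share was 9.50% in cluster 4, 0.777% in cluster 6, 0.211% in cluster 2 and 0 in the other 6 clusters and in the erythroid cells. After thinning, a Tfap2b UMI was found in 24.1% of cluster 11 cells (19.2% to 29.6%), in 1.36% of the pooled cells and in 1 of 206 erythroid cells, the background class. Without thinning, 50.9% of cluster 11 cells had one, at a median depth of 7956 UMIs, against 18517 in the erythroid cells. Foxf2 was found in 33.5% of thinned cells of cluster 11 (27.9% to 39.3%), 22.2% of cluster 4, 19.4% of cluster 6 and none of the erythroid cells.

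The cells of cluster 11 were not uniform. Clustered again on their own, they fell into 4 sub-clusters of 67, 55, 73 and 84 cells. The first was a phase group, with 97.0% of its cells called G2M and Cdc25c, Ccnb1 and Sgol2a in the lead. The other 3 had 65.5% to 74.0% of their cells in G1. Because these groups were made from the same counts, their levels are given as a description.

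The 55 cells of the second sub-cluster lacked much of the AP-2 beta signal. Tfap2b had 18.2 CPM there, against 232 to 271 CPM in the other 3 sub-clusters, while Tfap2c had 72.7 CPM. Meox2 was also low there, at 54.5 CPM against 176 to 338 CPM, as were Creg1, at 38.4 against 158 to 191 CPM, and Thbs4, at 14.1 CPM. Foxf2 hardly varied, at 208 to 235 CPM across the 4 sub-clusters. The genes leading this sub-cluster were Pdlim3, Prss23 and Lix1. Meis2, a homeobox gene of proximal identity, and the ephrin receptor gene Epha3 were also high, at 394 and 222 CPM against 72.5 to 133 and 38.2 to 83.4 CPM.

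The third sub-cluster led with the matrix gene Tgfbi, the chemokine gene Cxcl12 and Pid1. It had the highest Meox2, at 338 CPM, and Sema3a, at 141 CPM. It had the lowest Tfap2c and Lef1, both at 26.7 CPM. The fourth led with Tubb3, Usp4 and Pde4d, and had the highest S100a6, at 890.1 CPM. Its Tubb3 count of 53 UMIs held 39 from 1 cell. Ptch1 varied little, from 60.6 to 89.6 CPM over the 4 sub-clusters. Apart from the leading genes of cluster 11 and of each sub-cluster, the genes given here were chosen after their values were seen.

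**Figure D5:**
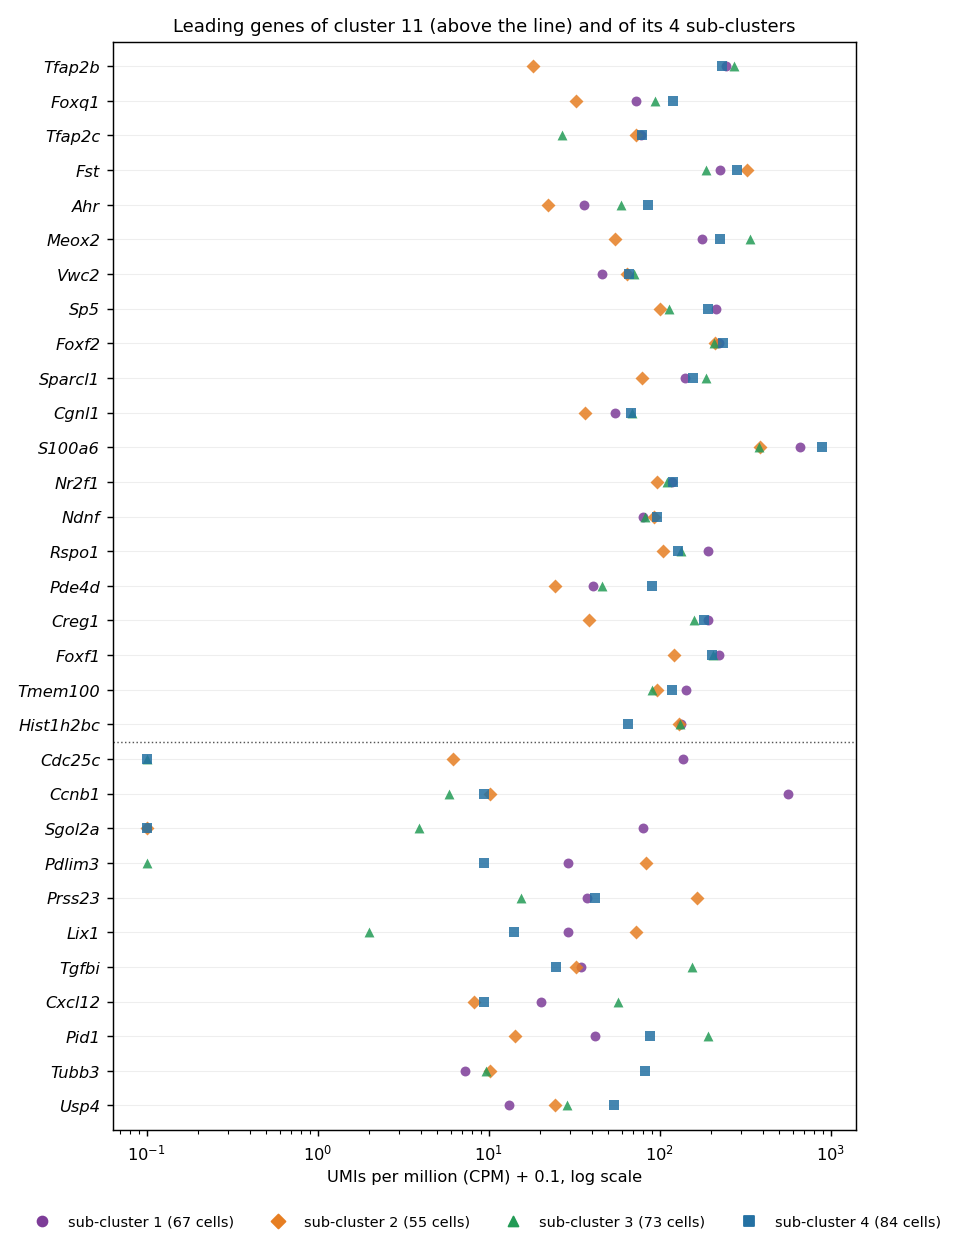
Level of the 20 leading genes of cluster 11 (above the dotted line) and of the 3 leading genes of each sub-cluster (below it, except Pde4d) in the 4 sub-clusters, as CPM plus 0.1 on a log scale, 1 point per sub-cluster. Sub-cluster 2 lies well below the others for Tfap2b, Meox2 and Creg1, and with them for Foxf2.

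Among 11 mesenchymal clusters of the E11.5 library, cluster 0 was most like cluster 11 (Pearson r = 0.910 over 9839 genes), followed by clusters 6 (0.901) and 5 (0.897). With genes of at least 50 CPM, cluster 0 led by Pearson (0.874) but E11.5 cluster 6 by Spearman correlation, at 0.846 against 0.842. E11.5 cluster 0 had Foxf1 at 171 CPM, near the 192 CPM of cluster 11, and Foxf2 at 55.7 CPM. It had 30.2 CPM of Ptch1, and E11.5 cluster 16 had 65.1 CPM. Tfap2b, Foxq1, Sp5 and Ahr were scarce in all 11 clusters of the earlier library, with no more than 3.37 CPM each. Tfap2c had up to 195 CPM in E11.5 cluster 16, and Nr2f1 up to 229 CPM in E11.5 cluster 7, both above their levels in cluster 11. Stage, library and protease concentration cannot be told apart in these values.

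Markers of some other cell types lay within the range of the comparison clusters, and several defining ones were at 0. Muscle markers summed to 114 CPM (102 to 138 CPM in the other clusters), glial markers to 14.8 CPM (5.23 to 30.3 CPM) and leukocyte markers to 13.1 CPM (9.38 to 14.8 CPM). Myf5, Pax7, Chrna1, Foxd3, Cdh19, Ptprc, Csf1r and Mrc1 were among those at 0. Going the other way, 1 of 8 measured leukocyte markers was called higher than in the pool, and none lower. None of 10 measured muscle markers was called, and 1 of 7 glial markers was lower. The shares of all measured genes are 4.78% higher and 9.9% lower. Endothelial markers summed to 19.1 CPM, below the 20.6 to 35.3 CPM of the others, with Kdr, Esam, Tie1 and Plvap at 0. Neuronal markers summed to 57.7 CPM, against 212 CPM in the pool and 56.2 to 711 CPM in its single clusters. Pericyte and smooth muscle markers summed to 117 against 155 CPM in the pool (99.2 to 272 CPM in its clusters). For mast cell markers the sums were 2.54 against 4.06 CPM (0.573 to 12.5 CPM). Melanocyte markers gave 1 UMI in all, with Pmel, Dct and Mlana at 0. Among skeletal types, osteoblast markers summed to 14.8 CPM (7.97 to 1660 CPM in the other clusters). Chondrocyte markers summed to 37.7 CPM (22.8 to 471 CPM), and Bglap, Acan and Matn1 were at 0. Their part in the results was not tested. The tendon markers summed to 86.9 CPM, of which Thbs4 gave 80.6 CPM, and the dental markers to 217 CPM, against 144 to 961 CPM.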

How the data were processed

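For each library the authors deposited UMI counts (whole numbers, genes by cells) and a cell sheet with cluster, lineage name, phase call and mitochondrial share. The submitters' processing notes name Cell Ranger 2.0.0, Seurat 2.3.4 and the mm10 build, without a role. The deposited mitochondrial fraction (0 to 1) is printed as a percent. The authors' deposited phase scores were not used. For cell filters, doublet removal and the annotation release the labels give nothing.

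Counts were summed per cluster, divided by their total to CPM, and compared as ratios with exact conditional binomial 95% intervals. The procedure was tested on simulated data. Named genes were the 20 highest and 10 lowest ratios (at least 50 UMIs, at least 50 CPM on the higher side, interval beyond 1.5-fold and, for higher genes, at least 0.2 of the gene's top level in any broad cell class), the 5 highest against each of 3 alike clusters, and 2 members at each end of each list. The ranking skipped sex-linked markers and mitochondrial, haemoglobin, predicted and ribosomal protein genes. Other genes were named after their values were seen. The cluster, the 24 gene lists and the markers were chosen with earlier results of these data known. Likeness used log2(CPM + 1) of genes with at least 10 CPM. Sub-clusters came from Leiden clustering at resolution 0.5. Thinning to 2000 UMIs left out 1 cell of cluster 11. Doublets were kept: Scrublet, at an expected rate of 0.05, marked 95 of 6318 cells. Gene coordinates are GENCODE's for GRCm38. The software was scanpy 1.11.5, scipy 1.17.1, numpy 2.4.6, matplotlib 3.10.9 and pandas 2.3.3 under Python 3.11.15. A few genes of the lists are not reported here by name.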

Additional observations from a re-analysis of the deposited data

How the results depend on the processing

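The counts of higher and lower genes, of list members and of genes higher than every cluster were recomputed under 22 alternatives, of which 3 were added after seeing the data (without cells with epithelial UMIs, S and G2M cells only, and cluster 21 in the pool). With calls at 2-fold, 331 genes and 28 list members were higher, and 43 genes were higher than each cluster. With each cell thinned to 2000 UMIs, 657 genes were lower and 35 higher than each cluster. In S and G2M cells only, 43 genes were higher than each cluster, and 25 with cluster 21, which the authors also name Mesenchyme, in the pool. Resolution 1.0 gave 8 sub-clusters. The other 105 recomputed values of the main counts, the phase share and the correlations stayed within their limits. Of the shares of cells with a UMI, recomputed at 4000 UMIs or without thinning, 46 moved beyond their interval and 14 did not. Of the list medians, 12 moved and 515 did not. None of the 30 leading genes reversed: 573 of their recomputed ratios stayed within the counting interval and 86 moved beyond it. The S phase median reversed to 0.28 in G1 cells only. Leaving cluster 4 out of the pool moved the log2 ratio of Tfap2b to 5.39 and of Foxq1 to 5.36. In most cases the cause was not tested; thinning and S and G2M cells leave fewer counts. No paired analysis was possible because each stage is 1 library. Depth limits genes of a few UMIs in cluster 11, where 1 UMI equals 0.424 CPM and the floor of 3 UMIs 1.27 CPM.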
